A study of Homo sapiens with 15 samples.

Results

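The elesclomol main effect in mice carrying human myeloma compares 6 bone marrow libraries from animals given elesclomol with 6 from animals not given it, out of 15 libraries in the series. Both sides hold 3 libraries without and 3 with bortezomib, and whether bortezomib was given entered the model as a covariate. All animals were SCID-beige mice, whose B, T and natural killer cells do not work properly, injected by vein with MM.1S cells, an established human multiple myeloma line carrying green fluorescent protein and luciferase. The 6 libraries without elesclomol came from a PBS group (the protocol describes saline) and from a group given bortezomib at 0.25 mg/kg into the peritoneum. The 6 with elesclomol came from a group given elesclomol at 25 mg/kg under the skin and from a group given both drugs at these doses from the start, called the combination here. The 3 libraries of a group that began elesclomol later, after 14 days, were left out. Per the series' design text, 3 tumours of each condition were examined. The marrow was flushed from the femurs when an animal became paralysed, so animals could differ in how long they were treated, but those times are not stated in the labels used here.

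Elesclomol is a copper ionophore: it binds copper outside the cell and releases it in mitochondria, where the ferredoxin FDX1 can reduce it. Excess mitochondrial copper is known to bind lipoylated enzymes such as DLAT of the pyruvate dehydrogenase complex, to disturb iron-sulfur proteins and to induce heat shock proteins. Bortezomib inhibits the proteasome and is a standard drug in myeloma, whose plasma cells make and degrade large amounts of protein. Immediate early genes, discussed below, encode transcription factors and signalling regulators whose mRNA is made within minutes of a stimulus and is short-lived.

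Counts per library ranged from 4500326 to 9227140, of which 35.0% to 40.1% fell on mitochondrial DNA. Plasma cell markers were high in all 12 libraries, with summed levels of 13700 to 17000 CPM (counts scaled to a library size of 1e6), and 13 of 14 passed the filter on low counts. The exception was CD27, with at most 1 count in a library. The erythroid marker HBA1 was at 0 in all 12 libraries, but the summed erythroid level was 758 CPM in elesclomol replicate 1 against 192 to 227 CPM in the other 11. Elesclomol replicate 1 thus stood apart. Some main-effect values are also given without it, while the list medians for elesclomol against PBS include it. Bortezomib replicate 1 and combination replicate 1 stood apart in another way: their deviations from the mean correlated with the GC content of the genes at 0.51 and 0.49, against -0.35 to 0.19 in the other 10. The PBS libraries resembled each other more than those of any other group did, with a chi-square per degree of freedom of 2.25 to 3.24 against 5.62 to 27.2 for the other pairs. In bulk marrow, fewer cells of a type and less RNA per cell cannot be told apart.

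No gene passed the threshold for the elesclomol main effect: 0 of 12816 genes tested (0.0%) had a Benjamini-Hochberg adjusted p under 0.05 in edgeR's quasi-likelihood test. At an unadjusted p under 0.05 there were 420 genes (3.28%), of which 241 were higher and 179 lower with elesclomol. DESeq2 called 5 genes, RHOB, PMAIP1, JUN, KLF6 and H3F3B, all lower, and limma voom called 2, RHOB and PMAIP1. Without combination replicate 1, edgeR called 6 genes lower, RHOB and JUN among them, and 0 higher. The log2 change over all genes had a median of -0.003, and 50.9% of genes lay below 0. In 21 genes (0.164%) the 6 libraries with elesclomol did not overlap the 6 without it, and 9 of those (0.0702% of the genes tested) were lower, among them RHOB, JUN, FOS, DUSP1 and DNAJA1. Genes named here for their small p or for the lack of overlap (RHOB, H3F3B, COL12A1, FOS, IER5, ZFP36, H1FX, NXPE3, SOCS3, KLF2, AC010970.1, AC010719.1 and the other genes called in the elesclomol group alone or in the paired fit of the bortezomib and combination groups) were chosen after their values were seen.

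The smallest adjusted p, 0.42 in edgeR, belonged to RHOB and PMAIP1. RHOB (ENSG00000143878) encodes a small GTPase of endosomes and the actin skeleton that is itself induced early by growth factors and stress. RHOB stood at 254, 254 and 222 CPM in the PBS libraries and at 185, 177 and 157 CPM in the bortezomib libraries. With elesclomol RHOB stood at 125, 144 and 85.8 CPM, and with both drugs at 131, 83.7 and 62.4 CPM. Every library with elesclomol lay below every library without it. The log2 change of RHOB was -0.97 ± 0.17 (SE, 6 against 6 libraries), and it was -1.04 ± 0.25 without bortezomib and -0.90 ± 0.25 with it. With the replicate number as a block RHOB was the 1 gene that passed the main effect, at -1.01 (edgeR adjusted p = 0.0169). The labels give no such pairing, and same-numbered libraries of different groups correlated at a median of -0.02 in their deviations (18 pairs).

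PMAIP1 (ENSG00000141682) encodes NOXA, a BH3-only protein that promotes apoptosis by binding MCL1. Its level was 10.2, 11.0 and 10.1 CPM with PBS and 7.15, 9.63 and 10.4 CPM with bortezomib. It was 4.90, 7.29 and 4.52 CPM with elesclomol and 5.87, 4.83 and 4.39 CPM with both drugs. Elesclomol replicate 2 and bortezomib replicate 1 overlapped slightly, at 7.29 and 7.15 CPM, and the 2 sides otherwise stood apart. The log2 change was -0.87 ± 0.15 over 6 against 6 libraries, with -0.91 ± 0.22 in the absence and -0.82 ± 0.22 in the presence of bortezomib. H3F3B, a gene for the replication-independent histone H3.3, showed the next smallest p among the lower genes, with a small change of -0.35 ± 0.07 (SE, edgeR adjusted p = 0.539). Its 6 libraries without elesclomol spanned 178 to 231 CPM (median 200) and the 6 with it 125 to 183 CPM (median 157).

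**Figure D1:**
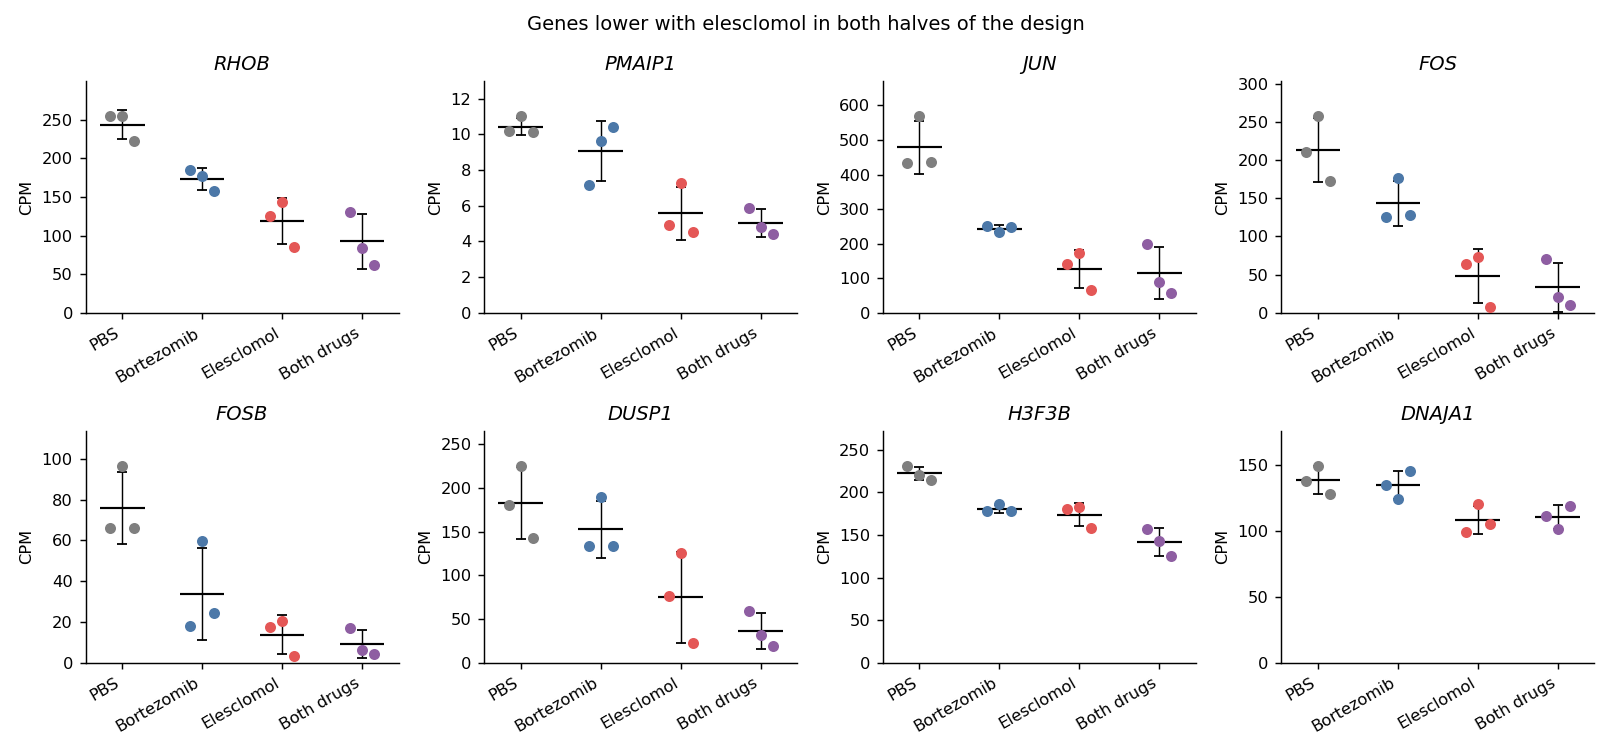
Expression (CPM, vertical axis from 0) of 8 genes in the 4 groups, 3 libraries each; points are libraries, horizontal lines group means and bars 1 SD. RHOB, JUN, FOS, DUSP1 and DNAJA1 are lower in all 6 libraries with elesclomol than in all 6 without it; for JUN these span 57.8 to 200 CPM and 233 to 568 CPM.

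The immediate early list had the lowest median of the 37 lists with a tested gene. Of 22 genes, 19 were tested and all 19 had a log2 change below 0, where 50.9% of all genes did. No member passed the threshold, and 11 had an unadjusted p under 0.05 with lower levels, against 1.4% of all genes tested. The median over the 19 was -0.85, and it was -0.95 for elesclomol against PBS and -0.59 for the combination against bortezomib. The summed level of the list was 1560 to 2200 CPM with PBS, 1270 to 1380 CPM with bortezomib, 821 to 994 CPM with elesclomol and 742 to 1210 CPM with both drugs. These genes are known to move together, so the count is not that of independent genes.

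JUN and FOS encode the partners of the AP-1 transcription factor. JUN (ENSG00000177606) was at 434, 568 and 435 CPM with PBS and at 252, 233 and 247 CPM with bortezomib. It was at 141, 174 and 66.5 CPM with elesclomol and at 200, 88.4 and 57.8 CPM with both drugs. The 2 sides did not overlap, and the bortezomib libraries lay between PBS and elesclomol. The log2 change of JUN was -1.50 ± 0.33 (edgeR adjusted p = 0.999). FOS (ENSG00000170345) was at 210, 257 and 173 CPM with PBS and at 125, 177 and 128 CPM with bortezomib. It was at 64.1, 73.1 and 7.69 CPM with elesclomol and at 70.1, 21.3 and 9.77 CPM with both drugs, for a change of -2.11 ± 0.53 on the log2 scale. Its 2 sides did not overlap either, but the libraries with elesclomol differed widely among themselves. Elesclomol replicate 3 and combination replicates 2 and 3 were the lowest for FOS, JUN, FOSB, EGR1 and DUSP1. The GC correlation of these 3 libraries was 0.19, -0.24 and 0.11. Among the libraries without elesclomol it was 0.51 in bortezomib replicate 1 and -0.35 to 0.10 in the others. The summed erythroid levels of the 3 libraries were 192 to 223 CPM. The time between the death of an animal and the freezing of its cells is likewise not stated, and its part in these values was not tested.

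FOSB, another AP-1 subunit, spanned 17.8 to 96.4 CPM (median 62.6) without elesclomol and 3.05 to 20.6 CPM (median 11.6) with it. The bortezomib library at 17.8 CPM lay within the range of the libraries with elesclomol, and the log2 change was -2.18 ± 0.48. KLF6, a zinc finger factor, had a median of 149 CPM without and 60.4 CPM with elesclomol and a change of -1.19 ± 0.27. ATF3, a stress-induced repressor, had medians of 7.31 and 3.80 CPM and a change of -0.79 ± 0.21. EGR1, a zinc finger factor downstream of ERK signalling, was at 74.4, 94.0 and 64.9 CPM with PBS and at 14.5, 17.9 and 2.93 CPM with elesclomol. With bortezomib EGR1 was at 41.4, 47.1 and 36.6 CPM, and with both drugs at 40.8, 13.1 and 6.51 CPM, so combination replicate 1 overlapped the bortezomib libraries. The log2 change of EGR1 was -1.85 ± 0.52, and -2.74 ± 0.66 and -1.02 ± 0.62 without and with bortezomib. At the other end of the list, IER5 and ZFP36 had a log2 change of -0.00.

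Feedback regulators of the ERK pathway did not share one direction. Of 18 tested, 11 lay below and 7 above 0, with a median of -0.12, and 3 were lower at an unadjusted p under 0.05 (1.4% of all genes). That median lay near 0 without single libraries: it was -0.02 without bortezomib replicate 3, -0.03 without PBS replicate 1, -0.04 without combination replicate 2, -0.05 without bortezomib or combination replicate 1 and -0.06 without combination replicate 3. DUSP1 (ENSG00000120129), a phosphatase that switches off MAP kinases, spanned 134 to 225 CPM (median 161) without elesclomol and 18.7 to 126 CPM (median 45.3) with it. The sides did not overlap, and the change was -1.67 ± 0.40 on the log2 scale. DUSP2, a nuclear phosphatase of the same family, and PHLDA1, a target of ERK signalling, had main effects of -0.85 ± 0.36 and -0.57 ± 0.25. Their changes were -1.97 ± 0.25 and -1.29 ± 0.18 without bortezomib and 0.14 ± 0.23 and 0.13 ± 0.18 with it. DUSP10, which acts mainly on JNK and p38, was at a median of 2.99 CPM without and 4.15 CPM with elesclomol (0.38 ± 0.19).

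The sequences before the start sites of 5 genes described so far, and of DNAJA1 from the heat shock list, are shown as examples. Their transcripts were lower in both arms of the design. Other genes lower in both arms, EGR1 among them, are not shown. They are RefSeq sequences on GRCh38.p14 matched by symbol, each the 250 bases before the annotated start, written 5' to 3' in the sense of the gene. Capitals mark TGACG on either strand (CGTCA when it lies on the other strand), the core of sites bound by CREB and ATF factors, except in DNAJA1, where they mark GAANNTTC, a pair of inverted heat shock element units that reads the same on both strands. The windows are chr2:20446824-20447073 (plus strand) for RHOB, chr18:59899746-59899995 (plus strand) for PMAIP1, chr1:58784048-58784297 (minus strand) for JUN, chr14:75278578-75278827 (plus strand) for FOS, chr5:172771196-172771445 (minus strand) for DUSP1 and chr9:33025023-33025272 (plus strand) for DNAJA1.
RHOB: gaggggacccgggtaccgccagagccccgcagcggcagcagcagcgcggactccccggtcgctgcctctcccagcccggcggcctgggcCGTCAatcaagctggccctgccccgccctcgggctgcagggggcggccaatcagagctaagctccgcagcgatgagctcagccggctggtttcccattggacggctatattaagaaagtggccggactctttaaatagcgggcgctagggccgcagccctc
PMAIP1: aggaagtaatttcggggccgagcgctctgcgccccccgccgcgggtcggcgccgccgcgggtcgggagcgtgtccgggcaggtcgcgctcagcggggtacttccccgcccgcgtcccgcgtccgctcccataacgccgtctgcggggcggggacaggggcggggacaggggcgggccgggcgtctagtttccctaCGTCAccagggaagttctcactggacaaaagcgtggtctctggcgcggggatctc
JUN: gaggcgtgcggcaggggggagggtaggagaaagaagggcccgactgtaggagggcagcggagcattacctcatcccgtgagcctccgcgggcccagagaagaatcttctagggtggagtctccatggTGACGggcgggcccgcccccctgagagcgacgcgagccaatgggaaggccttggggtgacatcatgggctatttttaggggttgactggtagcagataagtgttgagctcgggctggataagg
FOS: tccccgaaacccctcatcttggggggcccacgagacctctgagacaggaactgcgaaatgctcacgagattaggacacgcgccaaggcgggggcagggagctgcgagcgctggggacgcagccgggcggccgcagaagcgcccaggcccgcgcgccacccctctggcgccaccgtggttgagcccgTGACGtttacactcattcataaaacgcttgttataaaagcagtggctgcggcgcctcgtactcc
DUSP1: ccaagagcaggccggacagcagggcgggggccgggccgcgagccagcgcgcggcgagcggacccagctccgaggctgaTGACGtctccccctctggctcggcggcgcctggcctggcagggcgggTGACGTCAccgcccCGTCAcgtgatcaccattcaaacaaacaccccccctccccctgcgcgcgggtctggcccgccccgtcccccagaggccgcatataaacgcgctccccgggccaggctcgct
DNAJA1: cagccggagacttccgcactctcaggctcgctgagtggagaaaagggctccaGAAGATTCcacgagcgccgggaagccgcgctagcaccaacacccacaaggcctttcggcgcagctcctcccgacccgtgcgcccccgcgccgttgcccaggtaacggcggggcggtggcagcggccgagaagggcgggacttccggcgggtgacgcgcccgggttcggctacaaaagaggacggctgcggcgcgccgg
The nearest TGACG lay 161 bases before the start of RHOB, 55 before PMAIP1, 123 before JUN, 64 before FOS and 111 before DUSP1. DUSP1 held 4 matches, of which 2 overlap in the palindrome TGACGTCA. The 5 genes marked for TGACG were shown as examples, so that all 5 hold it is not a result about the lower genes. Not every immediate early promoter holds it. The motif TGACG was found in 9 of the 16 immediate early promoters that had a RefSeq window. It was found in 9 of 22 heat shock and 3 of 12 ERK feedback promoters, and in 21.7% of 27305 promoters of the same length. TGACGTCA was found in 1 of the 16 and in 1.77% of all. GAANNTTC was found in 10 of 22 heat shock promoters and in 5.85% of all. A match is a description of letters, not of a bound site.

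Heat shock genes, which encode chaperones, were mostly a little lower with elesclomol. Of 24 tested, 20 lay below and 4 above 0 with a median of -0.23 (-0.19 without and -0.14 with bortezomib). None passed the threshold, and 8 were lower at an unadjusted p under 0.05, against 1.4% of all genes. DNAJA1 (ENSG00000086061), an HSP40 cochaperone, was at 138, 149 and 128 CPM with PBS and 135, 124 and 145 CPM with bortezomib. It was at 99.3, 120 and 105 CPM with elesclomol and at 111, 101 and 119 CPM with both drugs. All libraries with elesclomol lay below all others, although the change was small, -0.32 ± 0.08 on the log2 scale. HSPD1, the mitochondrial chaperonin, had a change of -0.22 ± 0.07, with medians of 391 CPM without and 332 CPM with elesclomol. HSPH1, an HSP110 chaperone, and DNAJB4, an HSP40 family member, had changes of -0.34 ± 0.11 and -0.58 ± 0.19, and their sides overlapped.

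The strongly stress-inducible HSPA1B, which encodes HSP70, was lowest in the elesclomol group by its mean. It was at 105, 151 and 177 CPM with PBS and 10.9, 24.4 and 33.1 CPM with elesclomol. It was at 76.9, 49.2 and 43.0 CPM with bortezomib and 122, 21.7 and 46.7 CPM with both drugs. The change was -2.66 ± 0.60 without bortezomib (edgeR adjusted p = 0.26) and 0.17 ± 0.56 with it, and the difference between the arms did not pass (adjusted p = 0.392). HSPA1B and HSPA1A are near-identical copies, so counts could be split between them and their values are uncertain.

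No gene of copper handling or of the FDX1 and lipoylation pathway reached an unadjusted p under 0.05. In the copper list 8 of 12 tested genes lay below and 4 above 0, with a median of -0.06. Without bortezomib 6 of 12 lay below 0 (49.4% of all genes), with a median of -0.02. With bortezomib 11 of 12 did (52.8% of all genes), with a median of -0.04. SLC31A1, the main copper importer, was at 40.9 to 61.2 CPM (median 46.6) without and at 42.1 to 65.5 CPM (median 45.1) with elesclomol, a log2 change of 0.02 ± 0.10. ATP7A, the copper exporter, had medians of 34.1 and 32.8 CPM and a change of -0.04 ± 0.09. Both changes turned sign when some single libraries were left out. The smallest p in the list belonged to SCO2, a copper chaperone of cytochrome c oxidase, at -0.33 ± 0.18.

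Metallothioneins, small copper and zinc binding proteins that copper induces through MTF1, were too low to test. MT2A had 0 to 3 counts in a library, with 6 counts summed over the 6 libraries without elesclomol and 12 over the 6 with it. MT1X had 3 to 14 counts in a library, with a sum of 36 without and 44 with elesclomol. The other 6 metallothionein genes had at most 1 count in any library.

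FDX1, the ferredoxin that elesclomol engages, spanned 22.6 to 29.6 CPM (median 25.2) without and 21.9 to 28.3 CPM (median 24.4) with elesclomol. Its log2 change was -0.05 ± 0.09, and it was -0.05 ± 0.13 and -0.06 ± 0.13 without and with bortezomib. LIAS, the lipoic acid synthase, had a log2 change of -0.15 ± 0.12, and DLAT, the lipoylated subunit of pyruvate dehydrogenase, one of -0.06 ± 0.07. The list of 15 tested genes had 11 below and 4 above 0 and a median of -0.06. Without bortezomib 10 of 15 lay below 0 (49.4% of all genes), with a median of -0.05. With bortezomib 13 of 15 did (52.8% of all genes), with a median of -0.09. Iron-sulfur cluster assembly genes had a median of 0.02 with 12 of 18 above and 6 below 0, and again 0 at an unadjusted p under 0.05. The smallest p of that list was that of the scaffold protein ISCU at 0.12 ± 0.06. HMOX1, the heme oxygenase induced by oxidative stress, was low throughout, at 0.611 to 3.41 CPM without and 0.754 to 1.68 CPM with elesclomol (-0.51 ± 0.39).

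**Figure D2:**
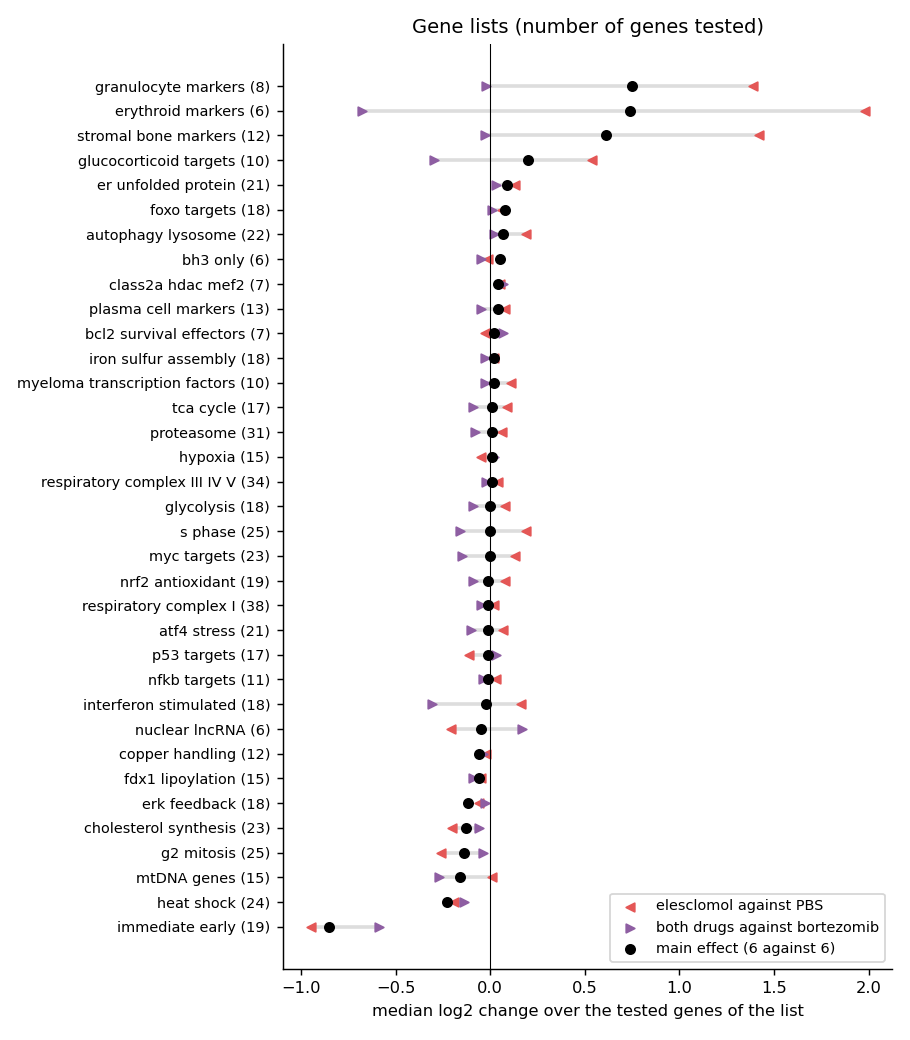
Median log2 change over the tested genes of each list with at least 5 such genes (number in brackets): black points show the main effect, left-pointing triangles elesclomol against PBS and right-pointing triangles the combination against bortezomib. The immediate early list lies farthest below 0 at -0.85, and the copper and FDX1 lists lie at -0.06. The marker lists of bone and blood cells at the top have a wide spread between the arms.

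Among regulators of apoptosis, PMAIP1 and BMF had changes of opposite sign. The 6 tested BH3-only genes had a median of 0.05, with 4 above and 2 below 0. BMF, a BH3-only gene that FOXO factors can induce, had medians of 12.5 CPM without and 20.8 CPM with elesclomol and a change of 0.60 ± 0.23. It was 1.21 ± 0.23 in the absence and 0.05 ± 0.22 in the presence of bortezomib. BCL2L11, which encodes BIM, was at 183, 154 and 124 CPM with PBS and 434, 404 and 350 CPM with elesclomol. It was at 164, 434 and 419 CPM with bortezomib and 193, 138 and 206 CPM with both drugs. The elesclomol change was thus 1.37 ± 0.32 without and -0.92 ± 0.32 with bortezomib, neither of which passed (edgeR adjusted p = 0.29 and 0.999), and the main effect was 0.22 ± 0.44. Without elesclomol replicate 1 this main effect was 0.1. MCL1, the survival protein that NOXA binds, was at a median of 919 CPM without and 773 CPM with elesclomol (-0.33 ± 0.11). It had the lowest change of its list of BCL2 survival proteins and effectors. Of the 7 genes tested there, 4 lay above and 3 below 0 (50.9% of all genes lay below), with a median of 0.02.

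Cholesterol synthesis, mitosis and endoplasmic reticulum genes each leaned one way by small amounts in the main effect. The medians of these lists lay nearer 0 with bortezomib than without it. Of 23 cholesterol synthesis genes, 19 lay below and 4 above 0, with a median of -0.13, and 4 were lower at an unadjusted p under 0.05. Over all genes tested 50.9% lay below 0 and 1.4% were lower at that p. Without bortezomib the median of this list was -0.2, with 16 of 23 below 0 (49.4% of all genes). With bortezomib it was -0.06, with 14 of 23 below 0 (52.8% of all genes). HMGCS1, an early enzyme of the pathway, had medians of 245 CPM without and 201 CPM with elesclomol (-0.28 ± 0.09). FDFT1 (squalene synthase), MSMO1 (a sterol oxidase) and INSIG1 (a sterol-sensing regulator) had changes of -0.18 ± 0.08, -0.22 ± 0.10 and -0.17 ± 0.08. All 25 genes of the G2 and mitosis list lay below 0, with a median of -0.14, but 0 reached an unadjusted p under 0.05. The median of that list was -0.26 without bortezomib, with 25 of 25 below 0 (49.4% of all genes), and -0.04 with it, with 14 of 25 below (52.8% of all genes). For the main effect it moved to -0.06, with 19 of 25 below 0, without bortezomib replicate 1. The change was -0.22 ± 0.11 for CDK1, the main mitotic kinase, -0.32 ± 0.18 for the spindle checkpoint kinase TTK, -0.20 ± 0.12 for KIF23, a motor of cytokinesis, and -0.17 ± 0.12 for cyclin B1 (CCNB1). In the list for endoplasmic reticulum stress (the unfolded protein response) 18 of 21 genes lay above 0, where 49.1% of all genes did. The median was 0.09 and 2 were higher at an unadjusted p under 0.05, against 1.88% of all genes. These were SYVN1, a ubiquitin ligase that clears misfolded proteins, at 0.23 ± 0.08, and CRELD2, a secreted stress protein, at 0.21 ± 0.08. The median of the endoplasmic reticulum list was 0.13 without bortezomib, with 3 of 21 below 0 (49.4% of all genes). It was 0.03 with bortezomib, with 9 of 21 below 0 (52.8% of all genes).

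The elesclomol change was also fitted separately for animals without and with bortezomib. Against PBS, edgeR called 11 genes (0.0858% of those tested): FOXP1, NXPE3, BASP1, F2R, FBXO32 and DAPK1 rose (6 genes, 0.0468%), and DUSP2, HDAC9, PDZRN4, PHLDA1 and FRMD6 fell (5 genes, 0.039%). Against bortezomib, the combination had 0 genes (0.0%) past the threshold in edgeR and 5 in DESeq2, with 542 genes (4.23%) at an unadjusted p under 0.05, where elesclomol against PBS had 1007 (7.86%). With the bortezomib and combination libraries alone in the fit and their replicate numbers as a block, edgeR called 5 genes, and 0 with no block. Of these SOCS3, an inhibitor of cytokine signalling, KLF2, a zinc finger factor on the immediate early list, and H1FX, a linker histone gene, fell by 3.03, 0.64 and 0.66 on the log2 scale (edgeR adjusted p = 0.00879, 0.0368 and 0.0368). The other 2, AC010970.1 and AC010719.1, rose by 1.14 and 1.07 (0.00879 and 0.0112). The block was chosen from correlations of these same libraries, not from the labels, so these adjusted p-values are not independent of that choice. The highest of these correlations, 0.67, joined the GC-rich libraries, bortezomib replicate 1 and combination replicate 1. SOCS3 was at 8.76, 2.29 and 10.6 CPM with bortezomib and at 1.33, 0.452 and 0.708 CPM with both drugs. The 2 contrasts share no library. The sign of change was the same in both for 43.2% of all genes tested, for 305 of the 1007 and for 187 of the 542. Of the 11 genes called in the absence of bortezomib, 1, NXPE3, had the same sign in its presence (0.78 ± 0.10 and 0.04 ± 0.10). The 11 calls depended on single libraries: 0 were left without any one of the 3 PBS or 3 elesclomol libraries, 22 without bortezomib replicate 1, 19 without combination replicate 1, 4 without bortezomib replicate 3 and 5 without combination replicate 3. A covariate for the host markers' level left 0.

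**Figure D3:**
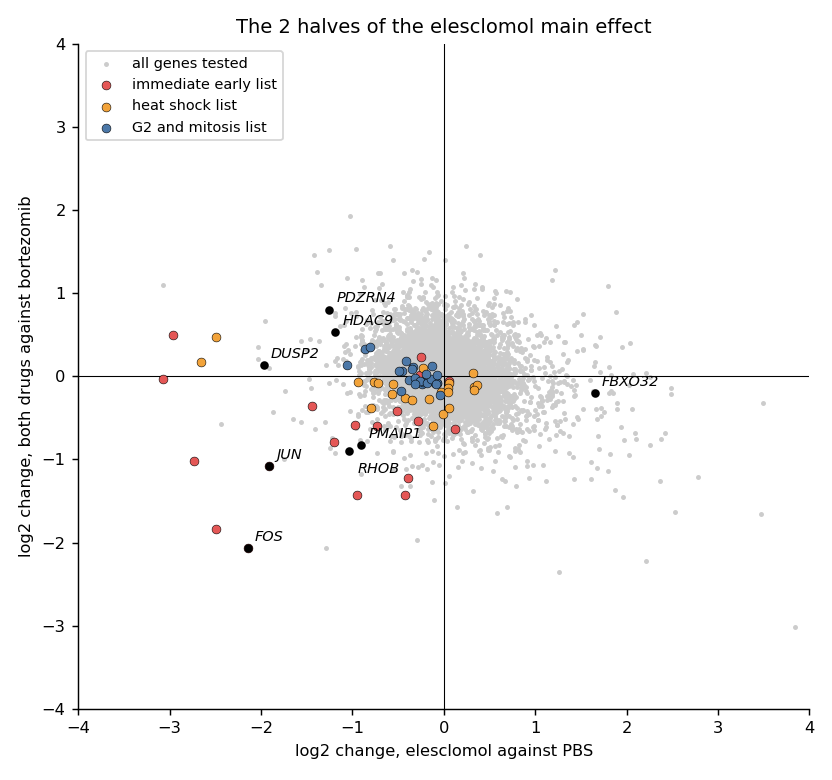
Log2 change for elesclomol against PBS (horizontal) and for the combination against bortezomib (vertical), 1 point a gene; 6 of 12816 genes lie outside the axes, which end at 4. Immediate early genes lie mostly in the lower left, with 14 of 19 below 0 on both axes. Over all genes tested 43.2% have the same sign on both axes, above or below 0. HDAC9 and PDZRN4 lie left of and above 0.

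The interaction, that is the elesclomol change with bortezomib minus the change without it, passed for 5 genes (0.039%), and 1099 (8.58%) had an unadjusted p under 0.05. With the replicate number as a block 10 genes passed. HDAC9 (ENSG00000048052), a class IIa histone deacetylase that represses MEF2 targets, was at 115, 85.6 and 98.9 CPM with PBS and 44.2, 46.6 and 40.4 CPM with elesclomol. It was at 70.7, 58.5 and 44.7 CPM with bortezomib and 87.2, 92.9 and 72.1 CPM with both drugs. HDAC9 was lower with either drug alone than with PBS, and all combination libraries lay above all libraries of the single drugs. The elesclomol change was -1.19 ± 0.16 without and 0.53 ± 0.16 with bortezomib, an interaction of 1.72 ± 0.23 (edgeR adjusted p = 0.0274, 2.09e-07 to 0.114 over 14 alternatives).

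PDZRN4, which encodes a PDZ and RING domain protein, was lower with either drug alone than with PBS. It was at 10.6, 9.17 and 11.3 CPM with PBS, 3.69, 3.97 and 3.98 CPM with bortezomib and 4.44, 4.63 and 3.91 CPM with elesclomol. With both drugs PDZRN4 was at 4.98, 8.30 and 7.22 CPM, and its interaction was 2.06 ± 0.30 (edgeR adjusted p = 0.0406, 3.41e-04 to 0.15 over the alternatives). PLA2G4A, the cytosolic phospholipase A2 that releases arachidonic acid, was at 68.5, 55.5 and 53.3 CPM with PBS and at 35.9, 36.6 and 36.3 CPM with elesclomol. It was at 47.6, 47.1 and 37.5 CPM with bortezomib and at 56.7, 63.8 and 59.0 CPM with both drugs. The interaction of PLA2G4A was 1.14 ± 0.17 (edgeR adjusted p = 0.0438, 1.3e-04 to 0.147 over the alternatives).

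FOXP1, a forkhead transcription factor of B cells, showed the mirror image. It was at 51.4, 50.7 and 52.0 CPM with PBS and rose to 79.9, 81.6 and 73.5 CPM with elesclomol. With bortezomib FOXP1 was at 54.1, 67.9 and 62.6 CPM, and with both drugs at 48.7, 46.9 and 51.1 CPM. The elesclomol change was 0.61 ± 0.10 without and -0.33 ± 0.10 with bortezomib, an interaction of -0.94 ± 0.14 (edgeR adjusted p = 0.0438, 4.09e-04 to 0.266 over the alternatives). H1FX-AS1 was at 12.4, 12.8 and 13.7 CPM with PBS, 22.3, 19.6 and 18.4 CPM with elesclomol, 16.7, 17.0 and 17.4 CPM with bortezomib and 10.5, 9.50 and 10.9 CPM with both drugs. Its interaction was -1.35 ± 0.17 (edgeR adjusted p = 0.0274, 3.12e-04 to 0.114 over the alternatives). H1FX-AS1 lies antisense to H1FX, a linker histone gene with an interaction of -0.95 ± 0.17 (adjusted p = 0.0854). The strand setting of the counting is not known here, so reads of the 2 genes cannot be told apart. Each of these 5 genes kept the sign of its interaction in all 14 alternatives. The number passing depended on single libraries: 0 without any one of PBS 1, 2 or 3, bortezomib 2 or 3, elesclomol 1 or 2, or combination 2 or 3, 2 without elesclomol 3, 13 without combination 1 and 31 without bortezomib 1.

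**Figure D4:**
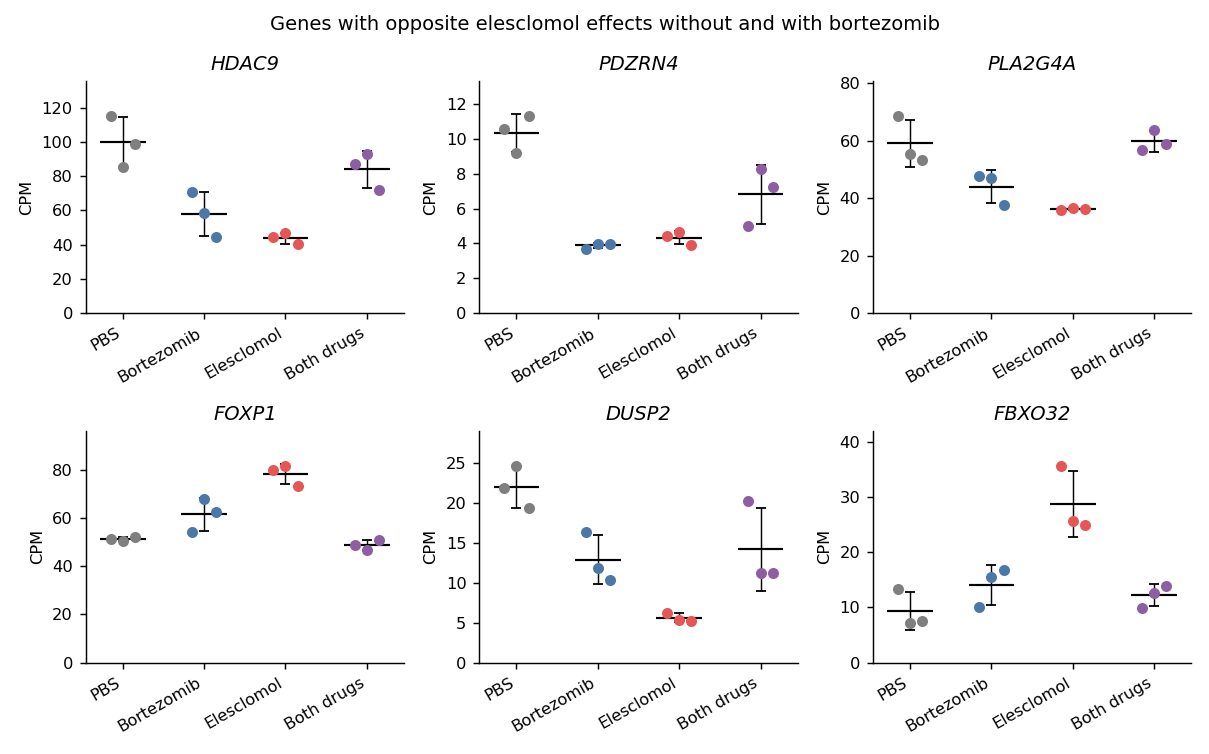
Expression (CPM, vertical axis from 0) of 6 genes in the 4 groups, 3 libraries each; points are libraries, horizontal lines group means and bars 1 SD. HDAC9 spans 40.4 to 46.6 CPM with elesclomol and 72.1 to 92.9 CPM with both drugs; the interaction passed for the first 4 genes and not for DUSP2 or FBXO32.

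DUSP2 and FBXO32 were called against PBS but not in the interaction. DUSP2 fell from 21.9, 24.6 and 19.4 CPM with PBS to 6.27, 5.33 and 5.25 CPM with elesclomol, a log2 change of -1.97 ± 0.25 (edgeR adjusted p = 0.0151). It was at 16.3, 11.9 and 10.4 CPM with bortezomib and 20.2, 11.2 and 11.2 CPM with both drugs, a change of 0.14 ± 0.23, and the interaction was 2.11 ± 0.34 (adjusted p = 0.0656). FBXO32, the ubiquitin ligase atrogin-1 and a FOXO target, rose from 13.3, 7.18 and 7.46 CPM with PBS to 35.6, 25.7 and 25.0 CPM with elesclomol (1.65 ± 0.26, edgeR adjusted p = 0.0471). With bortezomib FBXO32 was at 10.0, 15.6 and 16.7 CPM and with both drugs at 9.97, 12.7 and 13.9 CPM, where the groups overlapped. Its interaction was -1.85 ± 0.36 (adjusted p = 0.131). The other genes called against PBS had changes of 0.84 ± 0.14 for BASP1, a membrane protein of growth cones, 0.99 ± 0.16 for F2R, the thrombin receptor, 0.87 ± 0.13 for DAPK1, a kinase linked to cell death, -1.29 ± 0.18 for PHLDA1 and -1.07 ± 0.17 for FRMD6, which acts upstream of Hippo signalling. With bortezomib their changes were -0.20 ± 0.13, -0.11 ± 0.15, -0.08 ± 0.12, 0.13 ± 0.18 and 0.19 ± 0.17.

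Markers of bone, blood and vessel cells are called host markers here. The stromal, erythroid, granulocyte and macrophage lists had medians above 0 for elesclomol in the arm without bortezomib. In the arm with it these medians were below 0, though only -0.03 for the stromal and -0.02 for the granulocyte list. CDH5, the 1 endothelial marker tested, had changes of 1.46 and 0.65. The main-effect medians of the stromal, erythroid and granulocyte markers were smaller without elesclomol replicate 1. The handling of mouse reads is not stated. Some of these markers were well counted in every library, such as TFRC (647 to 1631 counts) and RUNX2 (147 to 369 counts). Whether their reads came from host cells was not tested. Of 12 tested stromal and bone markers 10 lay above 0, with a median of 0.61, and 2 were higher at an unadjusted p under 0.05 (1.88% of all genes). COL3A1, a fibrillar collagen, had medians of 5.03 CPM without and 10.7 CPM with elesclomol (1.09 ± 0.32), and 1.05 without elesclomol replicate 1. COL6A2, another collagen chain, had a change of 0.92 ± 0.38, and 0.72 without that library. COL12A1, a collagen outside the marker list, had the smallest p of the higher genes. It was at 1.58, 1.22 and 1.56 CPM with PBS, 1.38, 2.60 and 1.52 CPM with bortezomib, 3.98, 3.51 and 2.69 CPM with elesclomol and 4.65, 2.71 and 5.95 CPM with both drugs. The 2 sides did not overlap, and the change was 1.25 ± 0.25 (edgeR adjusted p = 0.539), or 1.21 without elesclomol replicate 1. The summed stromal level was 110 to 158 CPM without elesclomol and 119 to 211 CPM with it, and its part in the COL12A1 values was not tested. The stromal median was 1.42 for elesclomol against PBS and -0.03 for the combination against bortezomib, where 8 of 12 markers lay below 0. The same 2 medians were 1.98 and -0.68 for the erythroid and 1.39 and -0.02 for the granulocyte markers, and these differences were not tested. The mean erythroid level was 5.912, 3.415 and 3.295 log2 CPM in elesclomol replicates 1, 2 and 3, and 2.981 to 3.247 with PBS. The mean granulocyte level was 3.988, 1.473 and 2.387 log2 CPM in these replicates, and 1.536 to 2.154 with PBS. Both were thus highest in replicate 1. For the main effect the stromal median was 0.38 without elesclomol replicate 1 and 0.39 without PBS replicate 2. That of 6 erythroid markers was 0.74 with and -0.24 without elesclomol replicate 1, and that of 8 granulocyte markers 0.75 and 0.13. Megakaryocyte and T and NK cell markers were too low to test, with PF4 at 0 in all 12 libraries and CD3D at no more than 2 counts.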

How the data were processed

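Total RNA of bone marrow cell pellets was sequenced after ribosomal RNA depletion with a stranded kit, per the labels' protocols. The submitters' processing notes name STAR 2.5.4b, featureCounts 1.6.1 and the build GRCh37. The strand setting, the annotation release and the handling of mouse reads are not stated there. The authors deposited raw read counts of 57773 genes, of which GENCODE 29 named 52338; the other 5435 held 1.07% of the counts. The authors' groups were taken from the sample titles, and 12 of 15 libraries were used.

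Differences were tested with edgeR 4.0.16 in R 4.3.3 (quasi-likelihood F test, robust, TMM factors, filterByExpr with a minimum count of 10), with bortezomib as a covariate, Benjamini-Hochberg adjustment over 12816 genes and a threshold of 0.05. The common biological coefficient of variation was 0.174, with 9 residual degrees of freedom. The interaction was tested in a model with that term, and the effects without and with bortezomib in a model of 4 group means. CPM of single genes and mean list levels use TMM-scaled library sizes. Summed list levels use raw library totals and all genes of a list found in the deposited counts, tested or not. P-values measure the spread between tumours. Replicate numbers were taken to pair 2 groups where the deviations of all 3 same-numbered pairs correlated above 0.1, which held for bortezomib with combination (0.67, 0.55 and 0.13) and for no other 2 groups. This pairing comes from the data, not the labels.

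The comparison and the 40 gene lists (692 genes, 685 found, 581 tested) were chosen with earlier results of these data known. Genes were named by rule: those passing the main effect, up to 4 of smallest p in each list described and by interaction p, and 14 fixed genes; exceptions are stated. Alternatives were DESeq2 1.42.0, its size factors alone, limma 3.58.1 (voom), no filter, a higher filter, all 15 libraries, group means, a replicate block, a host marker covariate, library sizes without mitochondrial genes, a GC and length correction (for 97.8% of genes), leaving out the GC-rich libraries, a test against a 1.2-fold change, and leaving out each library. Alternatives for the effects without and with bortezomib (a paired fit of the bortezomib and combination libraries included) and for list medians were added after seeing the data. The code was tested on simulated counts. Plots used Python 3.11.15, pandas 2.3.3 and matplotlib 3.10.9.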

Additional observations from a re-analysis of the deposited data

Results flagged for a closer look

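In 5 genes the effect of elesclomol differed between animals with and without bortezomib by the test of the interaction. The elesclomol change with bortezomib minus that without it was 2.06 on the log2 scale for PDZRN4, 1.72 for HDAC9, 1.14 for PLA2G4A, -0.94 for FOXP1 and -1.35 for H1FX-AS1. HDAC9, PDZRN4 and PLA2G4A were lower in all elesclomol libraries than in all PBS libraries and higher in all combination libraries than in all bortezomib libraries. FOXP1 and H1FX-AS1 were higher in the former and lower in the latter. The 5 genes were chosen by the interaction test on these same libraries, so this separation adds no separate evidence.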

How the results depend on the processing

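No gene passed the main effect with DESeq2's size factors, the higher filter, all 15 libraries, group means, the host covariate, library sizes without mitochondrial genes, the GC correction or the 1.2-fold test. DESeq2 called 5 (all lower), limma voom 2 (lower), the fit with no filter 21 (10 higher, 11 lower, of 33478 genes) and the fit without the GC-rich libraries 5 (lower). Leaving out 1 library gave 0 to 6 (0 higher), with 6 without combination replicate 1 alone. For the interaction, DESeq2 called 38 genes and single omissions gave 0 to 31. For elesclomol against PBS, DESeq2 called 45, the host covariate left 0, and single omissions gave 0 to 22. For the combination against bortezomib, DESeq2 called 5, the GC correction 1, the host covariate 1, and single omissions 0. The cause of these differences was not tested.

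Same-numbered libraries of different groups correlated at -0.20 to 0.67 in their deviations (median -0.02, 18 pairs), and 5 of 12 libraries correlated best with their own number. The numbers paired the bortezomib and combination libraries alone (0.67, 0.55 and 0.13). With the replicate number as a block the main effect had 1 gene, RHOB (-1.01, edgeR adjusted p = 0.0169), the interaction 10 genes, elesclomol against PBS 8 and the combination against bortezomib 0, or 5 when only those 2 groups were fitted with the block.

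Of 55 named genes, 51 kept the direction of their main effect in every alternative that gave a value. The exceptions lay near 0: ATP7A was 0.03 after the GC correction and -0.10 to 0.01 when single libraries were left out, BCL2L11 -0.02 to 0.47, SLC31A1 -0.04 to 0.10 and MALAT1 -0.27 to 0.07. The median of the immediate early list stayed within -1.04 and -0.74. The stromal median was 0.25 with the higher filter, the glucocorticoid median -0.01 and the erythroid median -0.34 with the host covariate (which is built in part from the erythroid markers), and the erythroid median -0.24 to 1.00 when single libraries were left out.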

Other observations

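In several gene lists the median elesclomol change had opposite signs without and with bortezomib. The 10 tested glucocorticoid targets had a median log2 change of 0.54 for elesclomol against PBS and -0.30 for the combination against bortezomib, and 0.20 for the main effect, where DUSP1 was the lowest. Without elesclomol replicate 1 the main-effect median was 0.06. SMAP2, a regulator of vesicle traffic on that list, had the highest change of the list at 0.58 ± 0.18 (edgeR adjusted p = 0.999). The medians were 0.19 and -0.16 for 25 S phase genes, 0.13 and -0.15 for 23 MYC targets, and 0.16 and -0.31 for 18 interferon-stimulated genes. Transcripts of mitochondrial DNA had a median of 0.01 without and -0.27 with bortezomib, with 14 of 15 below 0 in the latter (52.8% of all genes). Their summed level was not lower there, at 350000 to 391000 CPM with bortezomib and 368000 to 395000 CPM with both drugs. None of these lists had a gene past the threshold for the main effect, and the difference of the medians was not tested.

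Long nuclear RNAs varied between libraries within groups. NEAT1, which builds paraspeckles, spanned 458 to 1030 CPM without and 597 to 1340 CPM with elesclomol (0.69 ± 0.18, edgeR adjusted p = 0.999). Its log2 change was 0.52 without elesclomol replicate 1. MALAT1, a nuclear speckle RNA, spanned 1390 to 5270 CPM and 1580 to 6830 CPM, with its lowest levels in bortezomib replicate 1 and combination replicate 1, the GC-rich libraries.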
